A study of Mus musculus with 2 samples.

Results

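The genes of glycolysis, pyruvate handling and the tricarboxylic acid (TCA) cycle were followed through the cell classes of the mouse tail end. The set was a list of 34 symbols, matched by name with no threshold on a measured value, and drawn up with earlier results of these data known. All 34 were found among the 32286 features, and all 34 passed the low-count filter that left 11784 genes to test. The study took caudal tissues from embryos of the C57BL/6J strain, genotype wild type, age E8.5, and sequenced single cells with the 5′ chemistry of 10x Genomics. There is 1 group with 2 libraries, replicate 1 and replicate 2, no treatment and no mutant, so the comparisons are between cell classes. Tissue of several embryos was pooled before dissociation, but how many embryos went in is not stated. Nothing in the sources used here says whether the 2 libraries came from separate pools. The main fit takes out any offset that all classes of a library share. Its p-values are therefore set against how unevenly the gaps between classes repeat from replicate 1 to replicate 2. That unevenness may be technical.

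Glycolysis splits glucose into pyruvate in the cytosol. Pyruvate is then either reduced to lactate and exported, or carried into the mitochondrion, turned into acetyl-CoA by pyruvate dehydrogenase and oxidised in the TCA cycle. In the elongating tail of vertebrate embryos, glycolysis is known to be most active at the posterior end, in the progenitors and the posterior presomitic mesoderm, and to decline as the mesoderm matures towards somites. The caudal epiblast holds progenitors of both the presomitic mesoderm and the spinal cord.

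Cells were assigned to classes by marker genes, none of which is among the 34. Barcodes with at least 2000 unique molecular identifiers (UMIs) and with 0.3 to 10% of their UMIs from mitochondrial genes were used, 11244 in replicate 1 and 8328 in replicate 2. Barcodes with at least 2 markers of another tissue were left out (7145 and 4906). Among those left out, 2704 and 1220 otherwise met the gate of a class. Of the barcodes that remained, 2775 and 2265 met the gate of 1 class. The 7 classes were caudal epiblast-like (412 and 461 cells in replicates 1 and 2), caudal epiblast turning to mesoderm-like (1149 and 804), posterior presomitic mesoderm-like (285 and 190), anterior presomitic mesoderm-like (155 and 176), somite-like (319 and 262), preneural-like (333 and 258) and neural-like (122 and 114). Markers that no gate used were read as a check of the names. Fgf8 read 295 and 239 CPM (the UMI count of the gene scaled to the total of the class and library) in caudal epiblast-like cells against 8.73 and 9.97 in somite-like cells. Rspo3 read 429 and 410 CPM in posterior presomitic mesoderm-like cells against 4.14 and 10.2 in neural-like cells, and Pax3 read 142 and 122 CPM in somite-like cells against 2.03 and 4.18 in posterior presomitic mesoderm-like cells. Sox2 read 30.8 and 45.5 CPM in neural-like cells against 0.812 and 0 in posterior presomitic mesoderm-like cells. Of the same neural list, Cdh2 did not separate these classes in both libraries, with 116 and 220 CPM in neural-like against 152 and 188 in posterior presomitic mesoderm-like cells.

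The posterior presomitic mesoderm-like class stood apart in depth, with a median of 7519 and 8975 UMIs per cell against 12881.5 to 19857 in the other classes of replicate 1 and 13684 to 15747.5 in those of replicate 2. Its replicate 1 sum held 87.7 CPM over the 6 lateral plate and allantois markers, 68.7 of it from Osr1, against 29.9 CPM in replicate 2 and 17.4 and 11.8 CPM in caudal epiblast-like cells. All 6 of these markers were detected in the class in both libraries. Aldh1a2, a retinoic acid synthesis gene of somites, read 119 CPM there in replicate 1 and 6.57 in replicate 2, and it was also higher in replicate 1 in the anterior presomitic mesoderm-like (737 and 79.1) and somite-like classes (1332 and 319). The part of these transcripts in the results below was not tested. For depth, fits with every cell thinned to 4000 UMIs and with at least 5000 UMIs per barcode were made. Their values stand beside the results they change. Thinning dropped barcodes under 4000 UMIs and came before the gates, so the cells of each class changed along with depth. In replicate 1 the posterior presomitic mesoderm-like class went from 285 to 583 cells and the preneural-like class from 333 to 55. A custom eGFP entry carried 213 and 144 UMIs over the 7 classes (1.28 to 9.75 CPM per class and library) although both libraries are labelled wild type, and 761 barcode sequences occurred in both libraries.

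UMI counts were summed per class and library, and the 14 sums entered 1 edgeR quasi-likelihood fit with the library as a block. A gene was called where its Benjamini-Hochberg adjusted p over all 11784 genes was under 0.05. Levels below are CPM of those sums, given for replicate 1 and then replicate 2, and differences are log2 fold changes ± standard error (SE), with n = 2 libraries per class. In posterior presomitic mesoderm-like against caudal epiblast-like cells, 9 of the 34 genes were lower and 1 was higher, where 7.47% of all genes tested were lower and 6.19% higher. By DESeq2, another count test, 6 were lower and 1 higher, where 562 of all 11784 genes were lower and 524 higher. In somite-like against posterior presomitic mesoderm-like cells, 6 were lower and 0 higher (4.99% and 5.05% of all genes). There 13 of the 34 had an unadjusted p under 0.05, as did 2735 of all 11784 genes. DESeq2 gave 5 lower and 0 higher there, with 459 and 447 over all genes. In neural-like against caudal epiblast-like cells, 2 were lower and 0 higher (4.0% and 3.73%). Of the 34, 14 had an unadjusted p under 0.05 there, against 2460 of all 11784 genes. DESeq2 gave 2 lower and 0 higher, with 360 and 355 over all genes. In somite-like against neural-like cells, 7 were lower and 1 higher (7.84% and 7.42%). The median log2 difference of the 34 was -0.12, -0.17, -0.16 and -0.14 in the 4 comparisons, against -0.01, 0.00, -0.00 and 0.00 over all genes tested. These comparisons share classes and are not independent of each other. The calls rest on the block: without it 19 of the 26 were lost, and the 7 kept were the 4 of Slc2a3, the 2 of Aldoc and that of Slc2a1 in somite-like against neural-like cells.

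**Figure D1:**
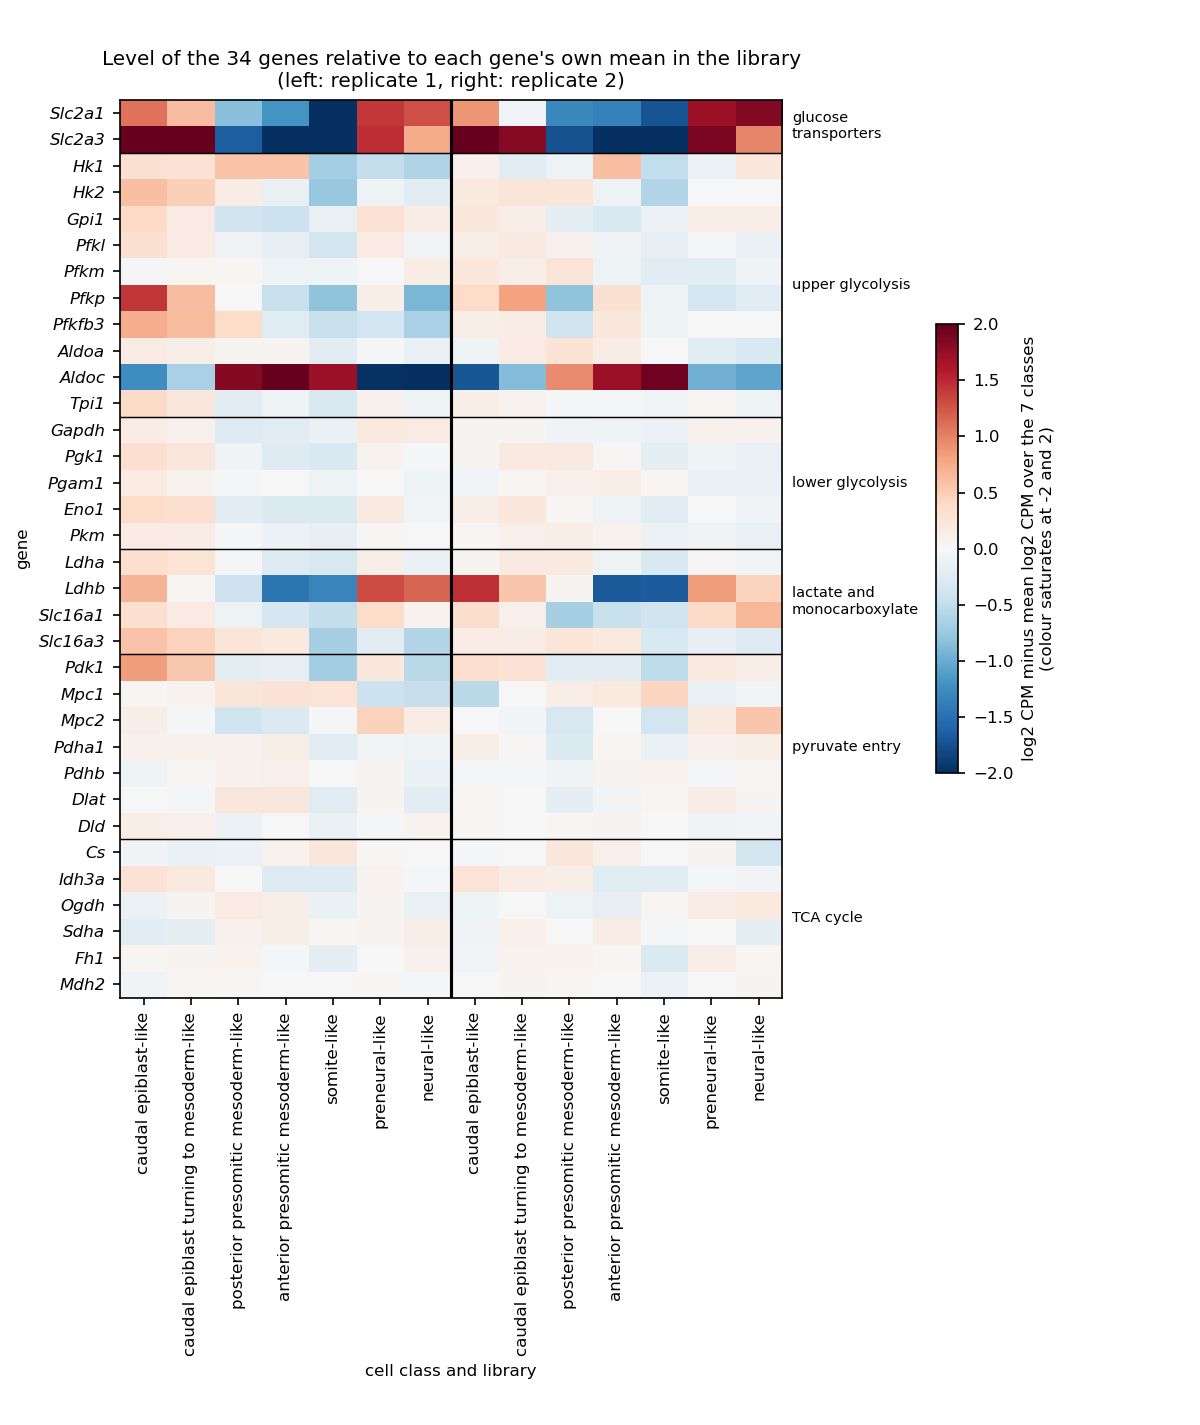
Heat map of the 34 genes (rows, ordered by role) in 7 cell classes of replicate 1 (left) and replicate 2 (right). Colour is log2 CPM minus the gene's mean log2 CPM over the 7 classes of that library. The strongest colours are in the glucose transporters Slc2a1 and Slc2a3 and in Aldoc and Ldhb, and the TCA cycle rows are nearly white, with highest-to-lowest ratios of 1.08 to 1.48.

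**Figure D2:**
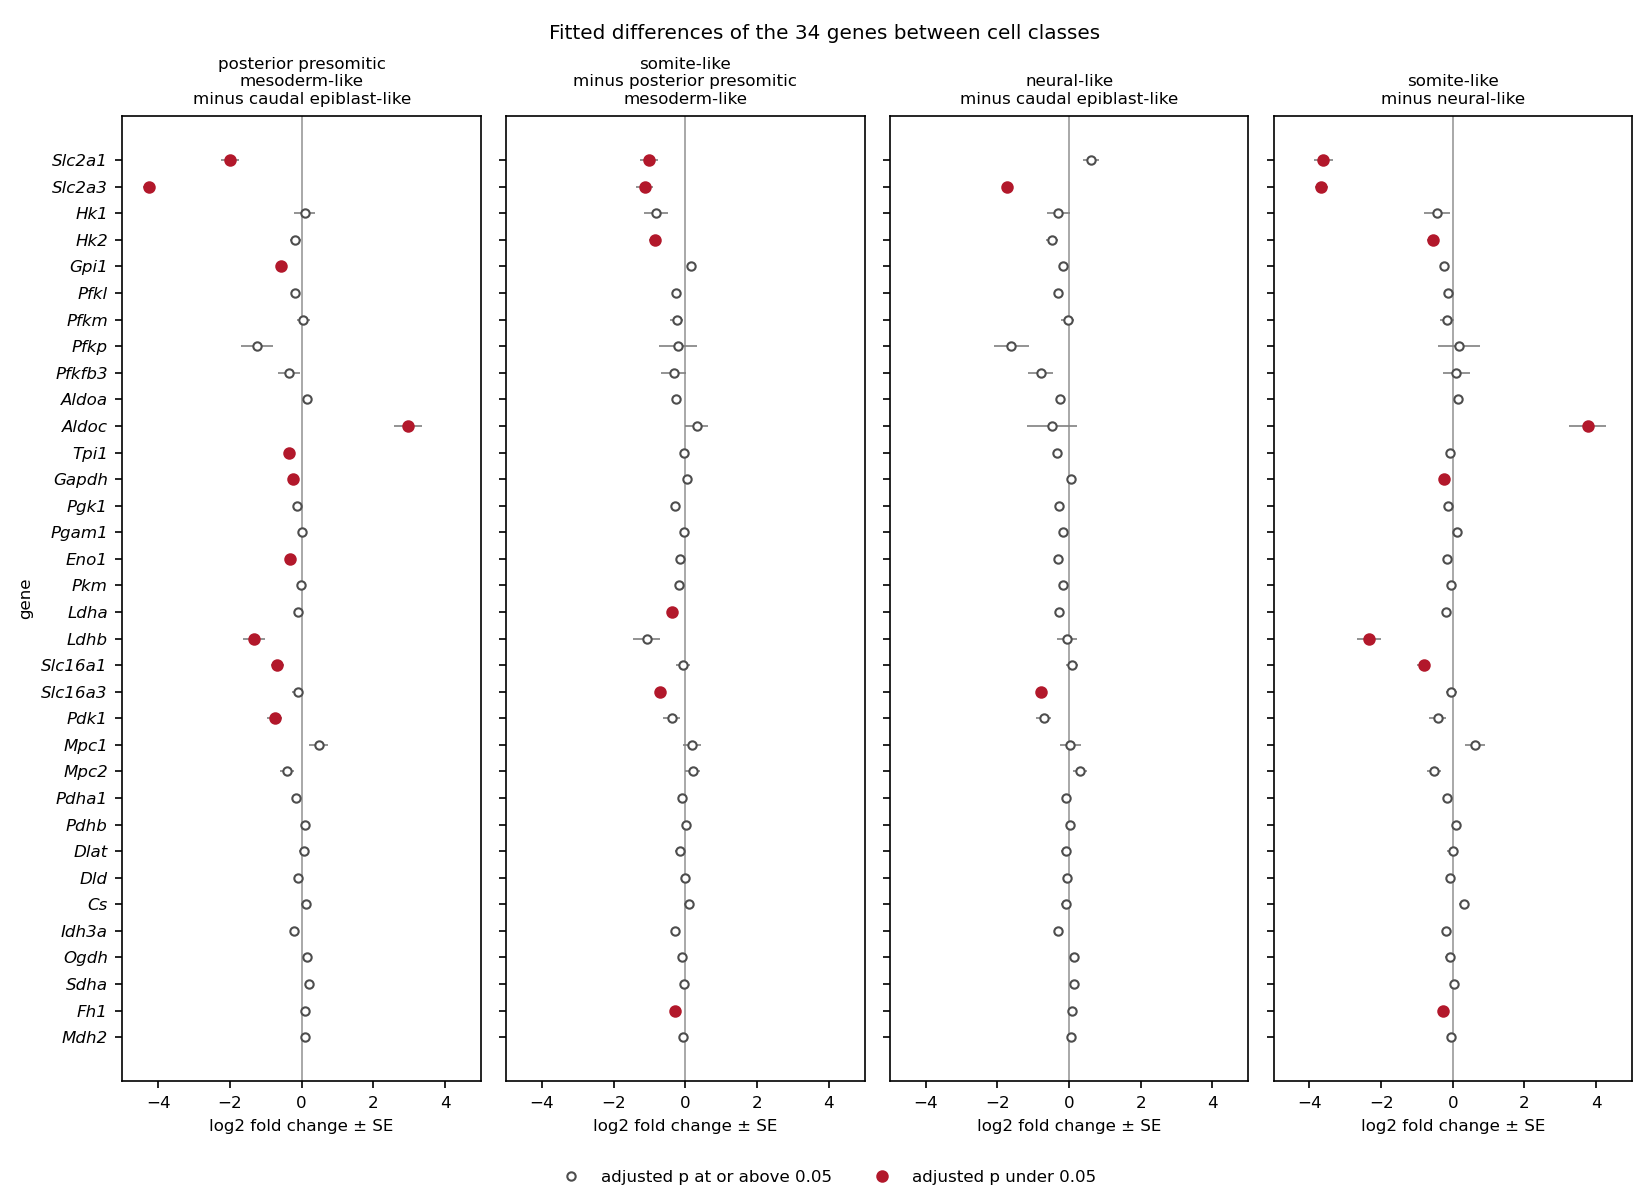
Fitted log2 fold change (point) ± SE (bar) of each of the 34 genes in the 4 comparisons. Filled points are called at an adjusted p under 0.05. In each panel most points lie within 1 log2 unit of 0, and Slc2a3 lies below 0 and is called in all 4.

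Among the 34, the glucose transporter gene Slc2a3 carried the largest decrease in each of the 4 comparisons. Slc2a1 came next in posterior presomitic mesoderm-like against caudal epiblast-like cells and in somite-like against neural-like cells. In somite-like against posterior presomitic mesoderm-like cells Ldhb, which was not called, lay below Slc2a1 (-1.08 and -1.01). Slc2a1 and Slc2a3 encode GLUT1 and GLUT3, the membrane proteins through which glucose enters the cell. Slc2a3 (chromosome 6, 122727809 to 122801640, minus strand, GRCm38) read 779 and 638 CPM in caudal epiblast-like cells, 528 and 402 in those turning to mesoderm, 39.0 and 34.1 in posterior presomitic mesoderm-like, 19.8 and 20.5 in anterior presomitic mesoderm-like and 18.1 and 14.5 in somite-like cells. In the preneural-like class it read 337 and 417 CPM, and in the neural-like class 203 and 222. The libraries lay close together in every class, and no posterior presomitic, anterior presomitic or somite-like value came near any of the caudal epiblast or neural values. The drop from caudal epiblast-like to posterior presomitic mesoderm-like cells was -4.25 ± 0.17 (19.1-fold lower, adjusted p = 3.56e-09). Slc2a3 fell further to somite-like cells (-1.14 ± 0.23, adjusted p = 0.00584), and it was lower in neural-like than in caudal epiblast-like cells (-1.72 ± 0.14, adjusted p = 4.31e-06) and in somite-like than in neural-like cells (-3.67 ± 0.18, adjusted p = 3.17e-08). The first drop was smaller under other choices of barcodes. It was -2.72 when barcodes were left out only at 3 markers of another tissue and -2.81 when cells were first thinned to 4000 UMIs, and the somite-like against neural-like difference was then -2.13 and -2.09. Without a lower limit on mitochondrial UMIs the first drop was -3.63, and with at least 5000 UMIs per barcode it was -4.31. Each of these values passed the same threshold. The exclusion at 3 markers was added after the data had been seen.

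Slc2a1 (chromosome 4, 119108711 to 119137983, plus strand) read 1915 and 882 CPM in caudal epiblast-like cells, 1380 and 460 in those turning to mesoderm, 503 and 195 in posterior presomitic mesoderm-like, 391 and 187 in anterior presomitic mesoderm-like and 175 and 144 in somite-like cells. On the neural side it read 2390 and 1566 CPM in preneural-like and 2209 and 1698 in neural-like cells. Replicate 1 was above replicate 2 in all 7 classes, by up to 1.58 log2 units, yet within each library the order from caudal epiblast to somite was the same. Slc2a1 fell from caudal epiblast-like to posterior presomitic mesoderm-like cells (-2.0 ± 0.24, 3.99-fold, adjusted p = 8.92e-05) and again to somite-like cells (-1.01 ± 0.26, adjusted p = 0.0223). The second drop was -1.45 in replicate 1 and -0.44 in replicate 2, and it missed the threshold by DESeq2 (adjusted p = 0.0628), after thinning (adjusted p = 0.129) and without a lower limit on mitochondrial UMIs (adjusted p = 0.0793). Somite-like cells held 12.2-fold less Slc2a1 than neural-like cells (-3.61 ± 0.26, adjusted p = 7.43e-07). Neural-like against caudal epiblast-like cells differed by 0.60 ± 0.22, which was not called (adjusted p = 0.135).

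Slc2a1 and Slc2a3 were the only 2 of the 34 whose level was lower at every step from caudal epiblast-like through turning to mesoderm, posterior and anterior presomitic mesoderm to somite-like cells in both libraries. Of all genes tested 0.611% showed that order. The balance between the pair shifted towards Slc2a1 on both paths. GLUT1 transcripts were 71.1% of the UMIs of both transporters in caudal epiblast-like cells of replicate 1 (exact 95% Clopper-Pearson interval 70.4 to 71.8%, counting error only) and 58.0% in replicate 2 (57.0 to 59.0%). The share was 91.6% (90.8 to 92.3%) and 88.4% (87.2 to 89.5%) in neural-like cells, and 92.8% (91.3 to 94.1%) and 85.1% (81.2 to 88.5%) in posterior presomitic mesoderm-like cells.

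**Figure D3:**
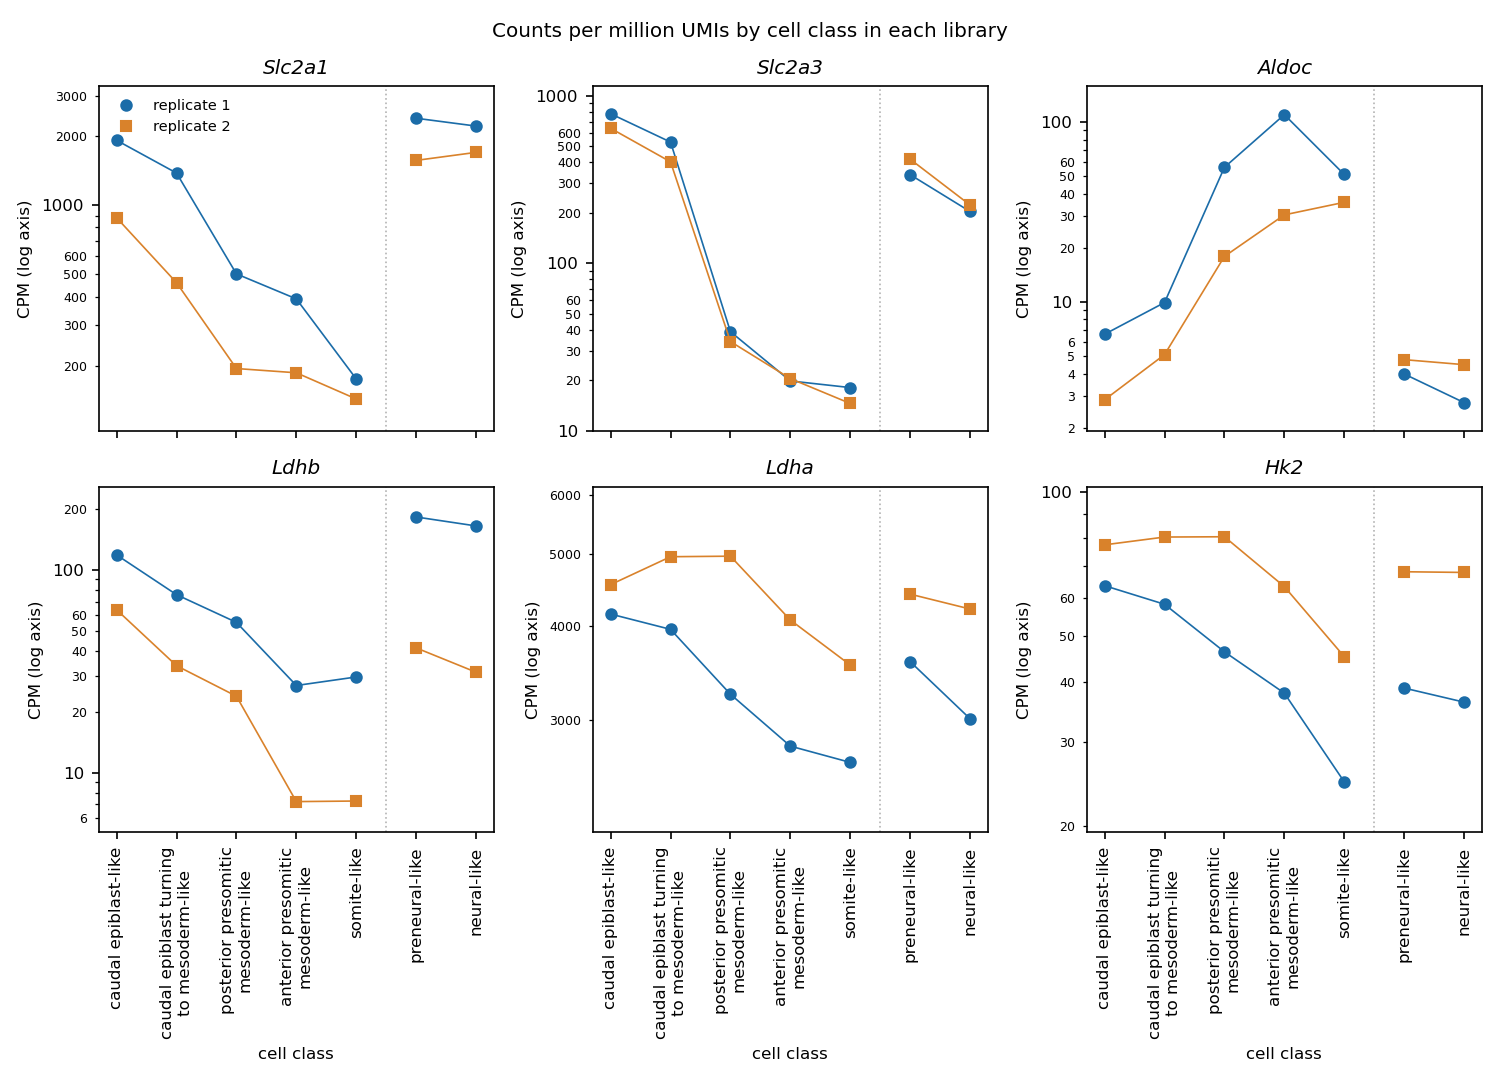
CPM (log axis) of 6 genes by cell class, with circles for replicate 1 and squares for replicate 2; lines join classes ordered from caudal epiblast to somite and from preneural to neural. Slc2a1 and Slc2a3 descend through the mesoderm classes and are high again in the neural ones, Aldoc runs the other way, and Ldha and Hk2 lie within a 2.57-fold range in each library.

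The enzymes of upper glycolysis prepare glucose and split it into 3-carbon sugars. Of these 10 genes, 2 were lower and 1 higher in posterior presomitic mesoderm-like than in caudal epiblast-like cells (7.47% and 6.19% of all genes tested). The 1 that rose was Aldoc (chromosome 11, 78322968 to 78327781, plus strand), the aldolase C isozyme best known from brain. It read 6.62 and 2.86 CPM in caudal epiblast-like cells, 9.93 and 5.10 in those turning to mesoderm, 56.1 and 17.9 in posterior presomitic mesoderm-like, 110 and 30.5 in anterior presomitic mesoderm-like and 51.2 and 35.8 in somite-like cells. Preneural-like cells read 3.98 and 4.78 CPM and neural-like cells 2.76 and 4.48, the latter from 6 and 7 UMIs. Both libraries placed the 3 presomitic and somite-like classes above all 4 others. The differences were 2.97 ± 0.40 from caudal epiblast-like to posterior presomitic mesoderm-like cells (7.82-fold, adjusted p = 0.000197) and 3.76 ± 0.51 for somite-like against neural-like cells (adjusted p = 0.000172). The latter was 4.23 in replicate 1 and 2.99 in replicate 2, and the former was 2.05 after thinning. Aldoa, the isozyme of muscle and most other tissues, was not called in any comparison. Aldoc took 3.25% (2.74 to 3.83%) and 0.765% (0.517 to 1.09%) of the UMIs of both aldolases in posterior presomitic mesoderm-like cells, 6.18% (5.48 to 6.95%) and 1.41% (1.12 to 1.77%) in anterior presomitic mesoderm-like cells, and 0.367% (0.259 to 0.506%) and 0.158% (0.0939 to 0.250%) in caudal epiblast-like cells.

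Gpi1, glucose-6-phosphate isomerase, and Tpi1, which interconverts the 3-carbon sugars, were the 2 lower genes. Gpi1 read 494 and 503 CPM in caudal epiblast-like cells against 283 and 385 in posterior presomitic mesoderm-like cells (-0.57 ± 0.09, adjusted p = 0.001). Tpi1 read 1030 and 1196 CPM against 683 and 1067 (-0.36 ± 0.10, adjusted p = 0.0265). For both genes replicate 1 moved further than replicate 2, with log2 -0.82 and -0.37 for Gpi1 and -0.61 and -0.15 for Tpi1. The Tpi1 call was lost without a lower limit on mitochondrial UMIs (-0.15, adjusted p = 0.314).

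Hk2 encodes a hexokinase, which phosphorylates incoming glucose. It read 63.7 and 77.6 CPM in caudal epiblast-like, 46.3 and 80.6 in posterior presomitic mesoderm-like, 37.9 and 63.4 in anterior presomitic mesoderm-like and 24.7 and 45.3 in somite-like cells. The first step was not called (-0.17 ± 0.15, adjusted p = 0.518) and the libraries went opposite ways. Hk2 fell from posterior presomitic mesoderm-like to somite-like cells by -0.85 ± 0.17 (adjusted p = 0.00443, -0.84 in each library), and somite-like cells were also below neural-like ones (-0.55 ± 0.18, adjusted p = 0.0494). The latter call was lost under 7 of 13 alternatives, with adjusted p up to 0.59. The other 6 genes of upper glycolysis were not called in any of the 4 comparisons: Hk1, the phosphofructokinase genes Pfkl, Pfkm and Pfkp, the regulator Pfkfb3 and Aldoa. Pfkp rested on as few as 5 UMIs in a class.

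Lower glycolysis turns the 3-carbon sugars into pyruvate and returns the ATP. Its 5 genes (Gapdh, Pgk1, Pgam1, Eno1 and Pkm) gave summed levels of 11042 to 14750 CPM in replicate 1 and 11068 to 13079 CPM in replicate 2. Gapdh read 3672 and 2292 CPM in caudal epiblast-like, 2771 and 2102 in posterior presomitic mesoderm-like, 3016 and 2029 in somite-like and 3717 and 2355 in neural-like cells. It was lower in posterior presomitic mesoderm-like than in caudal epiblast-like cells (-0.24 ± 0.07, adjusted p = 0.0316) and in somite-like than in neural-like cells (-0.24 ± 0.07, adjusted p = 0.0326). Eno1, the main enolase gene, read 4168 and 3384 CPM in caudal epiblast-like and 2792 and 3143 in posterior presomitic mesoderm-like cells (-0.32 ± 0.10, adjusted p = 0.0474). In both genes the first drop was mostly that of replicate 1 (log2 -0.42 and -0.11 for Gapdh, -0.59 and -0.095 for Eno1). Both of these first-step calls missed the threshold by DESeq2 (adjusted p = 0.0587 and 0.0712) and without a lower limit on mitochondrial UMIs (0.366 and 0.349). The Gapdh call in somite-like against neural-like cells was lost under 3 of 13 alternatives, with stricter gates (adjusted p = 0.0597), at least 5000 UMIs per barcode (0.0505) and no block (0.840). Pgk1, Pgam1 and Pkm were not called anywhere. The near-identical gene Eno1b held 8226 UMIs in the 7 classes, so the level of Eno1 is uncertain where the authors' counting could split their reads.

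Lactate dehydrogenase interconverts pyruvate and lactate. Ldha encodes the subunit of lactate-producing tissues and Ldhb that of the heart-type enzyme, and the 2 genes behaved differently. Ldhb (chromosome 6, 142490249 to 142507957, minus strand) read 119 and 63.7 CPM in caudal epiblast-like cells, 75.7 and 33.8 in those turning to mesoderm, 55.2 and 23.9 in posterior presomitic mesoderm-like, 27.0 and 7.22 in anterior presomitic mesoderm-like and 29.7 and 7.27 in somite-like cells. Preneural-like cells read 183 and 41.4 CPM and neural-like cells 165 and 31.4. Replicate 1 was above replicate 2 in all 7 classes, by 0.90 to 2.38 log2 units. Within each library the presomitic and somite-like classes were the lowest. Ldhb fell from caudal epiblast-like to posterior presomitic mesoderm-like cells (-1.32 ± 0.31, 2.50-fold, adjusted p = 0.0116) and was lower in somite-like than in neural-like cells (-2.34 ± 0.33, 5.06-fold, adjusted p = 0.000228). The first value was -0.60 after thinning and still called. Neural-like against caudal epiblast-like cells gave log2 0.46 in replicate 1 and -1.03 in replicate 2, and was not called.

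Ldha (chromosome 7, 46841475 to 46855627, plus strand) read 4156 and 4551 CPM in caudal epiblast-like, 3965 and 4959 in turning to mesoderm-like, 3247 and 4967 in posterior presomitic mesoderm-like, 2767 and 4081 in anterior presomitic mesoderm-like, 2632 and 3552 in somite-like, 3590 and 4419 in preneural-like and 3011 and 4221 in neural-like cells. Its peak was in caudal epiblast-like cells in replicate 1 and in posterior presomitic mesoderm-like cells in replicate 2. The step from caudal epiblast-like to posterior presomitic mesoderm-like cells was -0.37 in replicate 1 and 0.14 in replicate 2, and was not called. Ldha fell from posterior presomitic mesoderm-like to somite-like cells in both (-0.39 ± 0.09, 1.31-fold, adjusted p = 0.0156). The Ldhb share of the UMIs of both genes was 2.78% (2.57 to 3.0%) and 1.38% (1.25 to 1.52%) in caudal epiblast-like cells, 1.12% (0.942 to 1.31%) and 0.204% (0.135 to 0.297%) in somite-like cells, and 5.20% (4.69 to 5.75%) and 0.738% (0.547 to 0.975%) in neural-like cells. Neural-like cells lay above caudal epiblast-like cells in replicate 1 and below them in replicate 2.

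**Figure D4:**
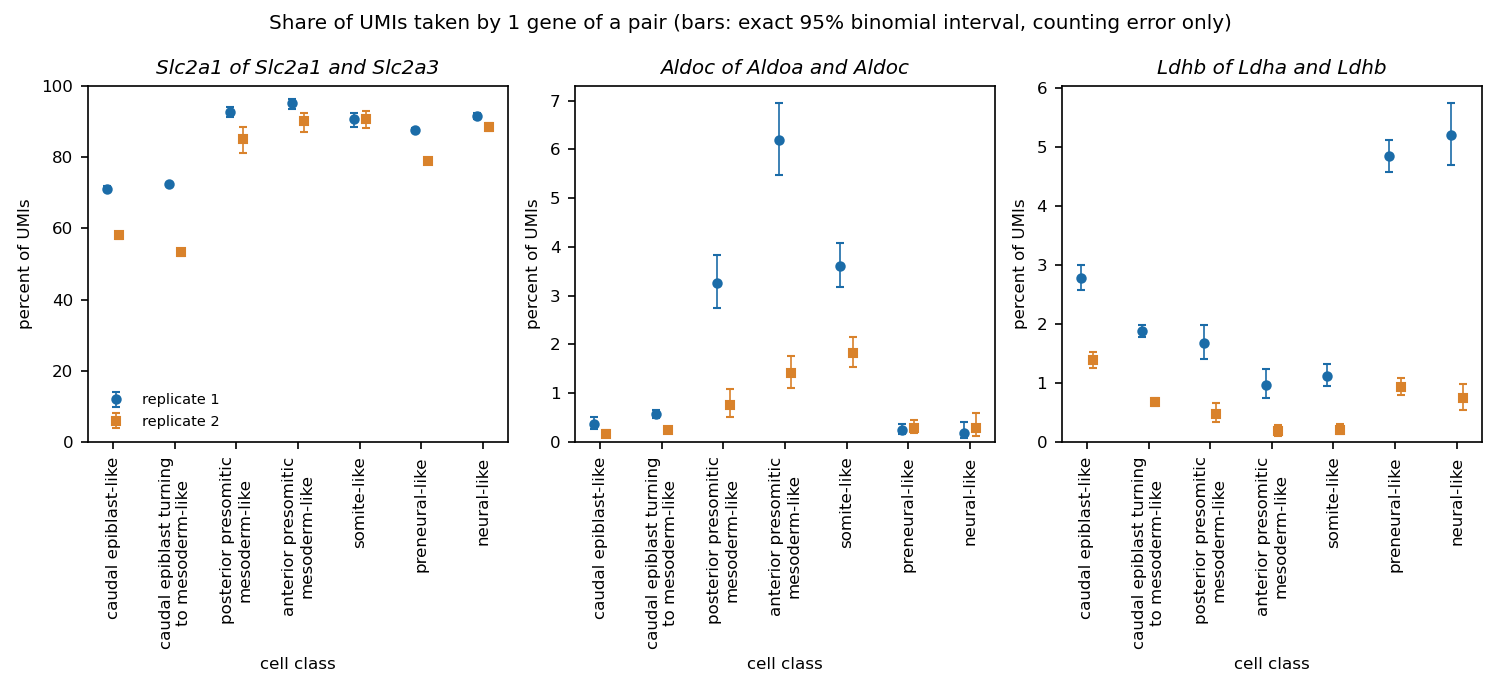
Share of UMIs (percent) taken by Slc2a1, Aldoc and Ldhb within their gene pairs, by cell class, with circles for replicate 1, squares for replicate 2 and bars for the exact 95% binomial interval, which covers counting error only. Aldoc is highest in the presomitic and somite-like classes of both libraries, and the Ldhb share in neural-like cells is 5.20% in replicate 1 and 0.738% in replicate 2.

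The monocarboxylate transporters carry lactate and pyruvate across the plasma membrane. Slc16a3, which encodes the exporter MCT4, read 476 and 351 CPM in caudal epiblast-like, 379 and 374 in posterior presomitic mesoderm-like, 203 and 255 in somite-like and 213 and 266 in neural-like cells. The somite-like and neural-like values were the lowest in both libraries. Slc16a3 fell from posterior presomitic mesoderm-like to somite-like cells (-0.71 ± 0.15, adjusted p = 0.00867) and was lower in neural-like than in caudal epiblast-like cells (-0.78 ± 0.15, adjusted p = 0.00608, log2 -1.17 in replicate 1 and -0.41 in replicate 2). Without a lower limit on mitochondrial UMIs the first of these was -0.22 and not called (adjusted p = 0.178). Slc16a1, which encodes MCT1, read 39.7 and 62.9 CPM in caudal epiblast-like, 29.7 and 31.1 in posterior presomitic mesoderm-like, 22.9 and 37.4 in somite-like and 33.6 and 77.5 in neural-like cells. It was lower in posterior presomitic mesoderm-like than in caudal epiblast-like cells (-0.68 ± 0.18, adjusted p = 0.0212) and in somite-like than in neural-like cells (-0.82 ± 0.18, adjusted p = 0.00651). Both Slc16a1 calls were lost after thinning to 4000 UMIs (adjusted p = 0.0856 and 0.284).

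Pyruvate enters the mitochondrion through the carrier of Mpc1 and Mpc2 and is converted by the pyruvate dehydrogenase complex, whose E1, E2 and E3 parts come from Pdha1 with Pdhb, Dlat and Dld. Pdk1 encodes a kinase that inhibits the complex. Of these 7 genes only Pdk1 was called, and only in 1 comparison, where 7.47% of all genes tested were lower and 6.19% higher. It read 33.5 and 38.5 CPM in caudal epiblast-like cells against 16.7 and 26.3 in posterior presomitic mesoderm-like cells (-0.75 ± 0.22, adjusted p = 0.0338). The log2 difference was -1.02 in replicate 1 and -0.54 in replicate 2. This call was lost under 6 of 13 alternatives, among them at least 5000 UMIs per barcode (-0.67, adjusted p = 0.0663). The summed level of the 7 genes was 389 to 461 CPM in replicate 1 and 375 to 441 CPM in replicate 2. Mpc1, at 5.98 to 16.2 CPM, differed by 0.62 ± 0.28 between somite-like and neural-like cells and was not called (adjusted p = 0.169).

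The TCA cycle genes were flat next to the transporters. Cs, Idh3a, Ogdh, Sdha, Fh1 and Mdh2 encode citrate synthase, subunits of isocitrate dehydrogenase, oxoglutarate dehydrogenase and succinate dehydrogenase, fumarase and mitochondrial malate dehydrogenase. Their summed level was 956 to 1013 CPM in replicate 1 and 846 to 947 CPM in replicate 2. None was called in posterior presomitic mesoderm-like against caudal epiblast-like cells, where their log2 differences ran from -0.21 to 0.21 and 0 had an unadjusted p under 0.05. Of all genes tested 7.47% were lower and 6.19% higher there. None was called in neural-like against caudal epiblast-like cells either (4.0% lower and 3.73% higher over all genes), with 1 at an unadjusted p under 0.05. The 1 gene called elsewhere was Fh1, with 165 and 129 CPM in posterior presomitic mesoderm-like, 136 and 100 in somite-like and 166 and 125 in neural-like cells. Fh1 fell from posterior presomitic mesoderm-like to somite-like cells (-0.30 ± 0.09, adjusted p = 0.0388) and was lower in somite-like than in neural-like cells (-0.28 ± 0.09, adjusted p = 0.0450). The latter call was lost under 8 of 13 alternatives (adjusted p from 0.0564 to 0.772 there) and the former under 5 (0.0532 to 0.728). Idh3a read 81.8 and 75.7 CPM in caudal epiblast-like and 56.1 and 53.1 CPM in somite-like cells, a pair of classes that no comparison set side by side.

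Towards the neural tube few differences were called in the main fit, but many of the genes kept 1 order of classes. From caudal epiblast-like through preneural-like to neural-like cells, 14 of the 34 were lower at each step in both libraries, where 10.1% of all genes tested were. They were Slc2a3, Hk2, Gpi1, Pfkl, Pfkfb3, Aldoa, Tpi1, Pgk1, Eno1, Pkm, Ldha, Slc16a3, Pdk1 and Idh3a. Some of these steps were small, as for Gpi1 in replicate 2, at 479 CPM in preneural-like and 477 in neural-like cells. None of the 34 was higher at each step, on this path (8.47% of all genes tested were) or on the mesoderm path (0.535%). Apart from Slc2a3 and Slc16a3 none of the 14 was called in neural-like against caudal epiblast-like cells in the main fit. The log2 differences of the other 12 ran from -0.79 ± 0.35 for Pfkfb3 (adjusted p = 0.211) and -0.71 ± 0.22 for Pdk1 (adjusted p = 0.0681) to -0.16 ± 0.09 for Gpi1 (adjusted p = 0.370). The number called in this comparison depended on the settings. Fewer of the 34 were lower without the block and more under several other settings, with the counts given in the closing section on processing.

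The 2 libraries differed from each other in these genes within every class. Replicate 2 was above replicate 1 in all 7 classes for 10 of the 34 (29.4%, against 16.6% of all genes tested): Hk1, Hk2, Gpi1, Pfkl, Aldoa, Tpi1, Pgk1, Ldha, Slc16a1 and Pdk1. It was below replicate 1 in all 7 for 6 (17.6%, against 11.2%): Slc2a1, Gapdh, Ldhb, Pdha1, Fh1 and Mdh2. The widest gap was that of Ldhb, from -0.90 in caudal epiblast-like to -2.38 in neural-like cells. The median of the 34 in posterior presomitic mesoderm-like against caudal epiblast-like cells was -0.32 in replicate 1 and -0.04 in replicate 2, and 15 of the 34 were lower in both (38.4% of all genes tested were). In somite-like against posterior presomitic mesoderm-like cells it was -0.20 and -0.17, with 18 of the 34 lower in both (28.7% of all genes). In neural-like against caudal epiblast-like cells it was -0.27 and -0.12, with 18 lower in both (34.9%), and in somite-like against neural-like cells it was -0.10 and -0.12, with 19 lower in both (30.2%).

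**Figure D5:**
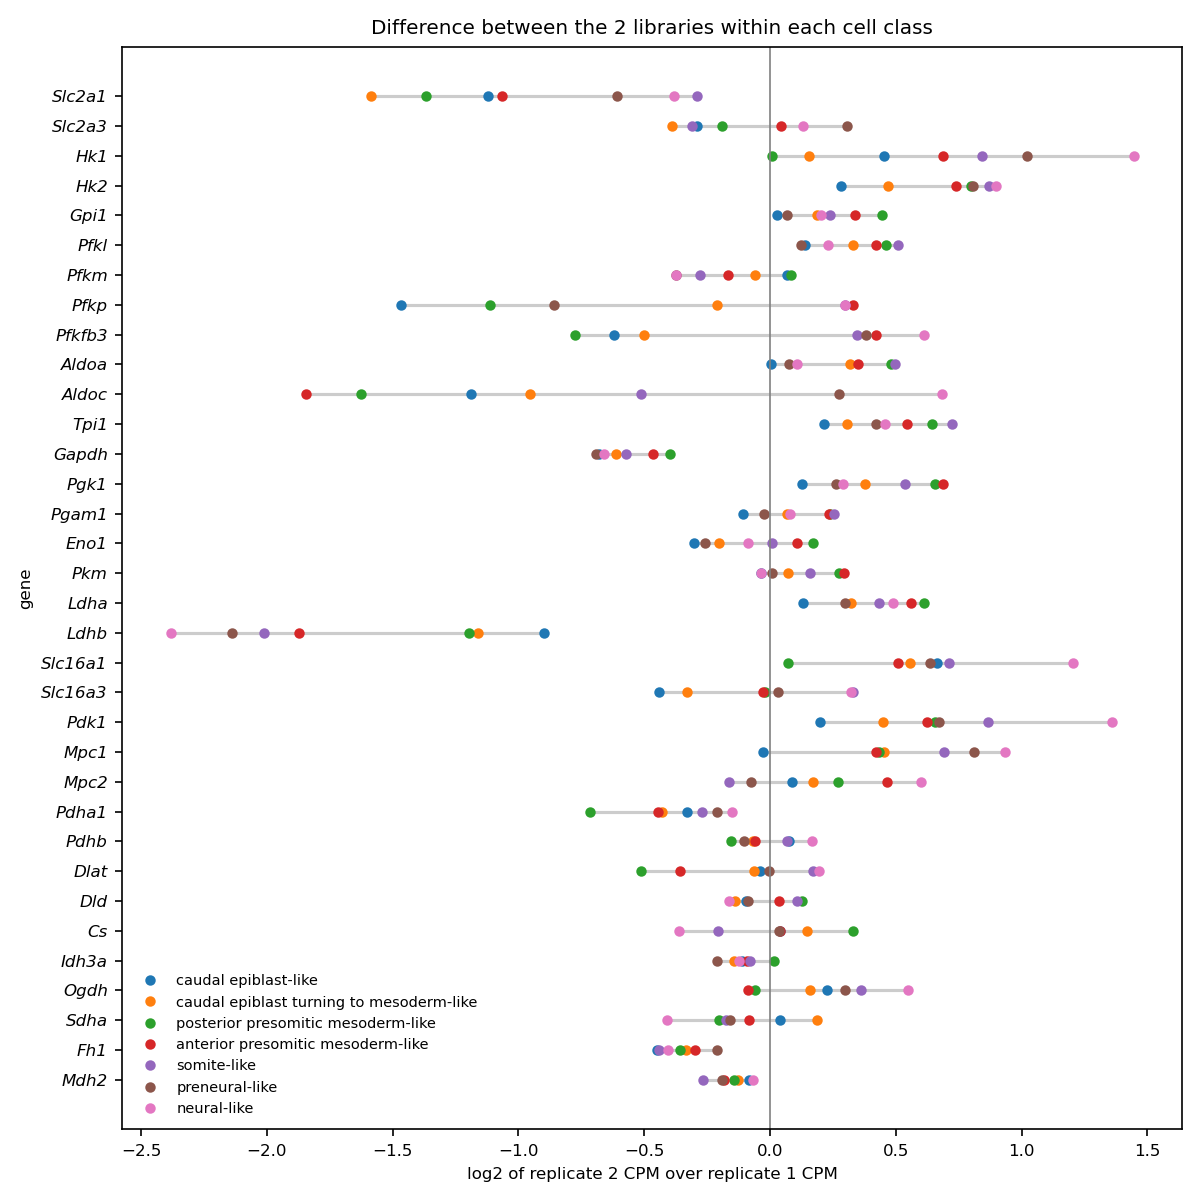
Log2 of replicate 2 CPM over replicate 1 CPM for each of the 34 genes, with 1 point per cell class and a grey line from the lowest to the highest class. Points of Ldhb, Slc2a1 and Gapdh lie left of 0 in all 7 classes and those of Hk2, Tpi1 and Ldha right of 0 in all 7.

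The start regions of 4 genes the results turn on are shown because glycolysis genes are known targets of hypoxia-inducible factors and of MYC proteins. Both can bind elements with the letters ACGTG. Other forms of these elements were not counted or marked. Sequences are from RefSeq on GRCm38.p6, for the 250 bases before the annotated start, 5′ to 3′ on the gene's strand. Printing stops at the first base that GENCODE M21 places in an exon of the gene, which left 216 bases for Slc2a1 (chr4:119108495-119108710, plus strand), 145 for Aldoc (chr11:78322823-78322967, plus strand) and 250 each for Ldha (chr7:46845554-46845803, plus strand) and Ldhb (chr6:142507958-142508207, minus strand). The Ldha stretch lies inside the GENCODE gene span, which begins further upstream. Where a gene had several entries, as Aldoc and Ldha did with 2 each, the most upstream one is printed. Capitals mark ACGTG on either strand, overlapping matches merged.
Slc2a1: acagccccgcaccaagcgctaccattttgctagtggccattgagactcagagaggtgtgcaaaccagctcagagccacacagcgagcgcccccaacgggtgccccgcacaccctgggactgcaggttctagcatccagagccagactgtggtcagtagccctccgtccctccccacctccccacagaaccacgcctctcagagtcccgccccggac
Aldoc: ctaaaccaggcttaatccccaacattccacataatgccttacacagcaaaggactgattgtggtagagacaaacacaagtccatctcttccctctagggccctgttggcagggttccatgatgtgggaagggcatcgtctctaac
Ldha: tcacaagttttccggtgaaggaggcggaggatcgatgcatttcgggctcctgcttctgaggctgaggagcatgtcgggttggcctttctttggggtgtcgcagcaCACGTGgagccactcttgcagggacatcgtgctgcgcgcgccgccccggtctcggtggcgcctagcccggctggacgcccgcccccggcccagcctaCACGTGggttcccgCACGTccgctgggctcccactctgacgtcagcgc
Ldhb: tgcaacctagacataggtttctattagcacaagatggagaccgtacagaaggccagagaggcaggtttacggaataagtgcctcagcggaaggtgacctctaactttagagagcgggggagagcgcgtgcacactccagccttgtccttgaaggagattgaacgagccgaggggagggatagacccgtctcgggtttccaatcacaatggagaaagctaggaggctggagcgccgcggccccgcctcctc
The Ldha stretch held 3 such places, 2 of which read CACGTG, the letters of the E-box that overlaps the motif, while the other Ldha entry held 0. The Ldhb window and both Aldoc windows held 0. Slc2a1 held 1, in the bases not printed. Entries matched 32 of the 34 genes, and 14 of the 32 (43.8%) had the motif in the 250 bases of at least 1 entry, against 4998 of 27025 genes with an entry (18.5%). Slc2a3 and Idh3a had no entry. A match is a description of the letters and not a binding site.

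Other genes of the same pathways were called in both directions. Of 43 other isozymes and subunits, 30 were tested. In posterior presomitic mesoderm-like against caudal epiblast-like cells 2 were higher and 2 lower (6.19% and 7.47% of all genes tested). The higher ones were Suclg2, a subunit of succinyl-CoA synthetase, and Pdhx, a pyruvate dehydrogenase subunit (0.51 ± 0.14). Suclg2 read 49.7 and 55.0 CPM in caudal epiblast-like against 78.0 and 76.5 in posterior presomitic mesoderm-like cells (0.58 ± 0.11, adjusted p = 0.0028). The lower ones were Bpgm (-0.54 ± 0.16) and Eno1b (-0.37 ± 0.11). The Eno1b fall may not be separate from that of Eno1, its near-identical copy. Eno3, the muscle enolase, was the 1 gene of the 30 called in somite-like against posterior presomitic mesoderm-like cells, at 8.94 and 22.7 CPM in the latter and 59.5 and 55.2 CPM in the former (2.01 ± 0.36, adjusted p = 0.00225). Of all genes tested 5.05% were higher and 4.99% lower there. In neural-like against caudal epiblast-like cells 2 were higher and 2 lower (3.73% and 4.0% of all genes tested). They were led by Pcx, pyruvate carboxylase (-1.98 ± 0.49), Idh2 (0.43 ± 0.08) and Suclg2 (0.42 ± 0.11). Pcx read 8.59 and 8.27 CPM in caudal epiblast-like and 2.76 and 1.28 in neural-like cells. The last value lies under the 1.92 CPM that 3 UMIs make in that class and library. In somite-like against neural-like cells 3 were lower, Bpgm (-0.74 ± 0.18), Aco1 (-0.47 ± 0.14) and Idh2 (-0.28 ± 0.08), where 7.84% of all genes tested were lower. Of the 7 pentose phosphate genes 1 was called in 1 comparison, Pgls in somite-like against posterior presomitic mesoderm-like cells (0.34 ± 0.10), where 5.05% of all genes tested were higher. Of 22 nuclear genes of the respiratory chain and ATP synthase, 1 was called, Cox7a2, higher in posterior presomitic mesoderm-like than in caudal epiblast-like cells (0.24 ± 0.06) and lower again in somite-like cells (-0.22 ± 0.06). Of all genes tested 6.19% were higher at the first of these steps and 4.99% lower at the second. The median over these 22 was 0.05, 0.02, 0.05 and 0.00 in the 4 comparisons.

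Hypoxia targets outside glycolysis were called in both directions. Of 13 listed, 11 were tested. In posterior presomitic mesoderm-like against caudal epiblast-like cells 3 were higher and 1 lower (6.19% and 7.47% of all genes tested). Ddit4, a stress-induced inhibitor of mTOR signalling, read 62.6 and 28.9 CPM in caudal epiblast-like, 245 and 230 in posterior presomitic mesoderm-like, 237 and 238 in anterior presomitic mesoderm-like, 17.3 and 25.0 in somite-like and 27.1 and 12.8 in neural-like cells. Both presomitic classes were above all others in both libraries. Ddit4 rose by 2.44 ± 0.27 into the posterior presomitic mesoderm-like class (adjusted p = 3.58e-05) and fell by 3.50 ± 0.31 to somite-like cells (adjusted p = 5.47e-06). The collagen prolyl hydroxylase gene P4ha2 rose by 0.88 ± 0.25 and fell by 1.39 ± 0.28 across the same steps. Ankrd37 was the lower gene of the first step (-0.89 ± 0.27). Beside Ddit4 and P4ha2, P4ha1 fell in somite-like against posterior presomitic mesoderm-like cells and Ndrg1 rose, from 2.84 and 1.79 to 8.53 and 13.7 CPM. Bnip3 was the 1 gene called in neural-like against caudal epiblast-like cells (-1.34 ± 0.23). Ndrg1 was the 1 called in somite-like against neural-like cells, where the neural-like class read 0.46 and 0 CPM.

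Among 11 listed regulators 9 were tested. Hif1a, the oxygen-regulated subunit of hypoxia-inducible factor, read 108 and 127 CPM in posterior presomitic mesoderm-like and 83.6 and 98.0 in somite-like cells (-0.36 ± 0.09, adjusted p = 0.015). Myc rose across the same step, from 61.7 and 43.6 to 126 and 112 CPM (1.15 ± 0.25, adjusted p = 0.00925). Mycn was higher in neural-like than in caudal epiblast-like cells (168 and 149 against 92.1 and 110 CPM, 0.68 ± 0.13), and lower in somite-like than in neural-like cells (-0.74 ± 0.13), where Myc was higher (1.10 ± 0.26) and Tfam lower (-0.40 ± 0.09). None of the 9 was called by edgeR in posterior presomitic mesoderm-like against caudal epiblast-like cells, where 1 had an unadjusted p under 0.05. Of all genes tested 6.19% were higher and 7.47% lower there. FGF signalling forms a posterior-to-anterior gradient in this tissue, and 7 genes that read it out were followed beside the metabolic genes. In neural-like against caudal epiblast-like cells 7 of 7 fell (4.0% of all genes tested), led by Spry4 (-5.05 ± 0.37), Il17rd (-3.67 ± 0.51) and Etv4 (-3.35 ± 0.57). Spry4 read 0.46 and 1.92 CPM in neural-like cells, where 3 UMIs make 1.38 and 1.92 CPM, so the size of its fall is uncertain. In somite-like against posterior presomitic mesoderm-like cells 4 of 7 fell (4.99% of all genes tested), led by Spry4 (-3.32 ± 0.25), Etv4 (-2.15 ± 0.54) and Etv5 (-2.10 ± 0.36). In posterior presomitic mesoderm-like against caudal epiblast-like cells only Spry1 was called (-1.49 ± 0.33), and in somite-like against neural-like cells Dusp6 and Spry1 were higher (2.59 ± 0.56 and 1.86 ± 0.50).

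Cell cycle transcripts differed between the classes as well, and their part in the metabolic differences was not tested. The summed S-phase list was 2078 and 2244 CPM in caudal epiblast-like, 1858 and 1864 in posterior presomitic mesoderm-like, 1882 and 1887 in somite-like and 2272 and 2426 in neural-like cells. In posterior presomitic mesoderm-like against caudal epiblast-like cells 3 of the 9 S-phase genes fell, led by Mcm3 (-0.40 ± 0.06), and 0 of the 8 G2/M genes were called by edgeR (2 had an unadjusted p under 0.05). Of all genes tested 7.47% were lower and 6.19% higher there. In somite-like against neural-like cells 5 of 9 and 4 of 8 were lower (7.84% of all genes tested), led by Mcm6 (-0.47 ± 0.08) and Cenpf (-0.52 ± 0.10). In neural-like against caudal epiblast-like cells 5 of the 8 G2/M genes were higher (3.73% of all genes tested), led by Aurka (0.56 ± 0.11).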

How the data were processed

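Caudal tissue of E8.5 mouse embryos was measured in 2 single-cell libraries (295866003 and 150964773 UMIs in 30449 and 18245 barcodes). The deposited values are raw UMI counts per gene and barcode. The submitters' processing notes name Cell Ranger 6.1.1 and mm10. The 34 genes, the other lists, the marker gates and the promoter motif were chosen with earlier results of these data known.

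Barcodes were gated by marker genes as described, counts were summed per class and library (1561107 to 18131865 UMIs), and the sums were tested with edgeR 4.0.16 in R 4.3.3 (TMM scaling, filterByExpr, quasi-likelihood F test, two-sided, Benjamini-Hochberg, prior count 0.125). The library was a block because the classes of 1 library come from the same pool, which pairs them by design. DESeq2 1.42.0 was an alternative. Gates were at least 3 caudal epiblast markers (Nkx1-2, Epha5, Hes3, Cyp26a1, Fgf17, Evx1), at least 2 presomitic markers (Tbx6, Msgn1, Dll3, Hes7), Mesp2 or Ripply2 for the anterior class, at least 2 somite markers (Tcf15, Meox1, Meox2, Uncx, Tbx18, Foxc2) and at least 2 neural markers (Sox1, Pax6, Rfx4, Irx3, Nkx6-1, Olig2), with mixed classes at 2 and 2. Doublets were marked with Scrublet through Scanpy 1.11.5 (57 and 18 of the gated cells) and kept, and their removal was an alternative. Intervals cover counting error only. Every one of the 34 is accounted for in each comparison. Called genes with the 10 largest changes are given with values, and of each other list up to 3 called genes with the largest changes, with further called genes named where a count was small. The fit was also run on simulated data, with the library offset of a gene the same in all classes and the same spread for every gene. That setting is simpler than these libraries, so it cannot show how the fit handles their uneven gaps between classes.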

Additional observations from a re-analysis of the deposited data

Results flagged for a closer look

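A second entry named Aldoa, which is not the entry used for Aldoa here, held 293 UMIs in the 7 classes of both libraries (202 and 91, or 4.80 and 2.89 CPM), above the limit of 3 that a count of 0 allows. The custom eGFP sequence held 357 UMIs in the same cells (213 and 144, or 5.06 and 4.57 CPM), also above that limit, although both libraries are labelled wild type. Neither entered a comparison.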

How the results depend on the processing

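Of 26 calls on the 34 genes, 7 held under all 13 tested alternatives and 0 reversed. A further 7 were lost only in the fit with no replicate block, since 14 held in every other alternative. With no replicate block 1, 1, 1 and 2 genes were lower in the 4 comparisons in the order of the report, the median of somite-like against neural-like cells was -0.13, and the calls over all genes were 246 higher and 247 lower, 203 and 223, 102 and 142, and 381 and 404. With no low-count filter (20540 genes tested) 2 were higher in the first comparison (887 of all genes) and 11 lower in the second (819). In the third 1 was higher and 14 lower (623 and 796 of all genes), and 3 were higher in the last (1116, median -0.13). With mitochondrial UMIs from 0 to 10% (12318 genes tested) 3 were higher in the first and 14 lower in the second (median -0.28). In the third 5 were lower, and the last median was -0.13. All genes gave 1306 higher and 1341 lower in the first, 1180 and 1178 in the second and 557 and 519 in the third. In the third comparison 5 were lower by total UMIs only (494 of all 11784 genes) and 5 with stricter gates (459 of 11142). Without ribosomal protein and mitochondrial genes 6 were lower there (525 of 11687). With the exclusion at 3 markers (added after seeing the data) 4 were lower (653 of 12138). After thinning 8 were lower and 1 higher (317 and 248 of 10572). In the last comparison 4 were lower with stricter gates (796 of 11142 genes, median -0.10) and 4 after thinning (357 of 10572, median -0.13). The median there was -0.17 by total UMIs only and -0.13 without ribosomal protein and mitochondrial genes. Thinning gave 399 higher and 357 lower of all genes in the last comparison and 248 higher in the third, and DESeq2 gave 562 lower in the first. Leaving out 1 library gave medians of -0.32 to -0.040, -0.20 to -0.17, -0.27 to -0.12 and -0.12 to -0.10, with no test. The anterior presomitic mesoderm-like class had too few cells for the fit with stricter gates. The causes were not tested. Depth limits genes at few UMIs, such as Pfkp at 5 to 191 UMIs per class.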
